A study of Mus musculus with 30 samples.

Results

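A set of 8 genes of acetylcholine signalling, out of 55335 genes in the count table, was followed through ribosome-bound mRNA of the nucleus accumbens: Chat, Slc18a3 and Slc5a7, which make, package and recapture acetylcholine or its precursor, Ache, which breaks it down, and the muscarinic receptors Chrm1, Chrm2, Chrm3 and Chrm5. They were chosen by symbol, through the match of the Ensembl identifiers to the GENCODE M21 annotation, and all 8 passed the filter on low counts. The libraries came from female mice carrying D1-Cre-RT or A2A-Cre-RT, which place an HA-tagged ribosomal protein (RiboTag) in neurons of the dopamine D1 receptor class or in adenosine A2A receptor neurons, titled D2 by the submitters. In each class 5 libraries came from Control females, 5 from females called CWDS Resilient and 5 from females called CWDS Susceptible. CWDS is chronic witness defeat stress, after which the animals were sorted by social interaction score, so resilience and susceptibility were read from behaviour and not assigned. Each of the 30 libraries pooled 4 mice of similar score, with tissue taken 24 h after that test. The animals' age is not stated, and p-values measure the spread between these pools. Each Cre driver defines its neurons by expression of a single receptor gene, and an immunoprecipitate also carries RNA of untagged cells to a degree that was not measured.

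Acetylcholine in the accumbens comes chiefly from sparse, tonically active cholinergic interneurons, which express Chat, the vesicular transporter Slc18a3 and the choline transporter Slc5a7. Muscarinic receptors fall into a Gq-coupled set (Chrm1, Chrm3, Chrm5), which activates phospholipase C, and a Gi-coupled set (Chrm2, Chrm4), which lowers cyclic AMP. Medium spiny neurons of both classes carry the M1 receptor encoded by Chrm1, D1-class neurons carry the M4 receptor encoded by Chrm4, and the M2 receptor is known as an autoreceptor of cholinergic interneurons.

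Gene counts per library ranged from 28996168 to 65882152. As a check of the labels, Drd1 was at 377 to 616 CPM (read counts scaled to each library's size, with sizes adjusted by the TMM method) in the D1 libraries. It was at 50.3 to 147 CPM in 13 of 15 D2 libraries, at 247 CPM in D2 Control replicate 5 and at 414 CPM in D2 Resilient replicate 5. Adora2a, the A2A receptor gene, was at 491 CPM in D2 Resilient replicate 5 and at 751 CPM in D2 Control replicate 5, against 1030 to 1457 CPM in the other D2 libraries and 105 to 314 CPM in the D1 libraries. D2 Susceptible replicates 1 and 2 had the fewest genes with a read, 15822 and 16525. D1 Susceptible replicate 1 had the lowest gene count, with 53.3% of its reads in the HTSeq summary lines, which are assigned to no gene, and a TMM factor of 0.34. The results below were refitted without each of these libraries.

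Per kilobase of exon, Chrm1 was the most abundant of the 8 genes at 28.9 ± 5.47 CPM per kilobase (SD over the 30 libraries), followed by Ache at 12.4 ± 3.43 and Chrm3 at 3.50 ± 1.04. Chrm2 was at 0.814 ± 0.412, Slc5a7 at 0.359 ± 0.258, Chat at 0.334 ± 0.198, Slc18a3 at 0.221 ± 0.182 and Chrm5 at 0.113 ± 0.112 CPM per kilobase. Ache exceeded Chrm3, and Chrm3 exceeded Chrm2, in 30 of 30 libraries, and Chrm2 exceeded Slc5a7 in 29. Chat exceeded Slc18a3 in 23 of 30 libraries and Slc18a3 exceeded Chrm5 in 25. Slc5a7 and Chat were not separated: Slc5a7 exceeded Chat in 16 of 30 libraries, and Chat was above Slc5a7 when the longest transcript replaced all exons as the length. Chrm4, which is no member, stood at 20.8 ± 14.6 CPM per kilobase, below Chrm1 in 17 of 30 libraries. The plot of members by library shows each gene on its own axis.

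**Figure D1:**
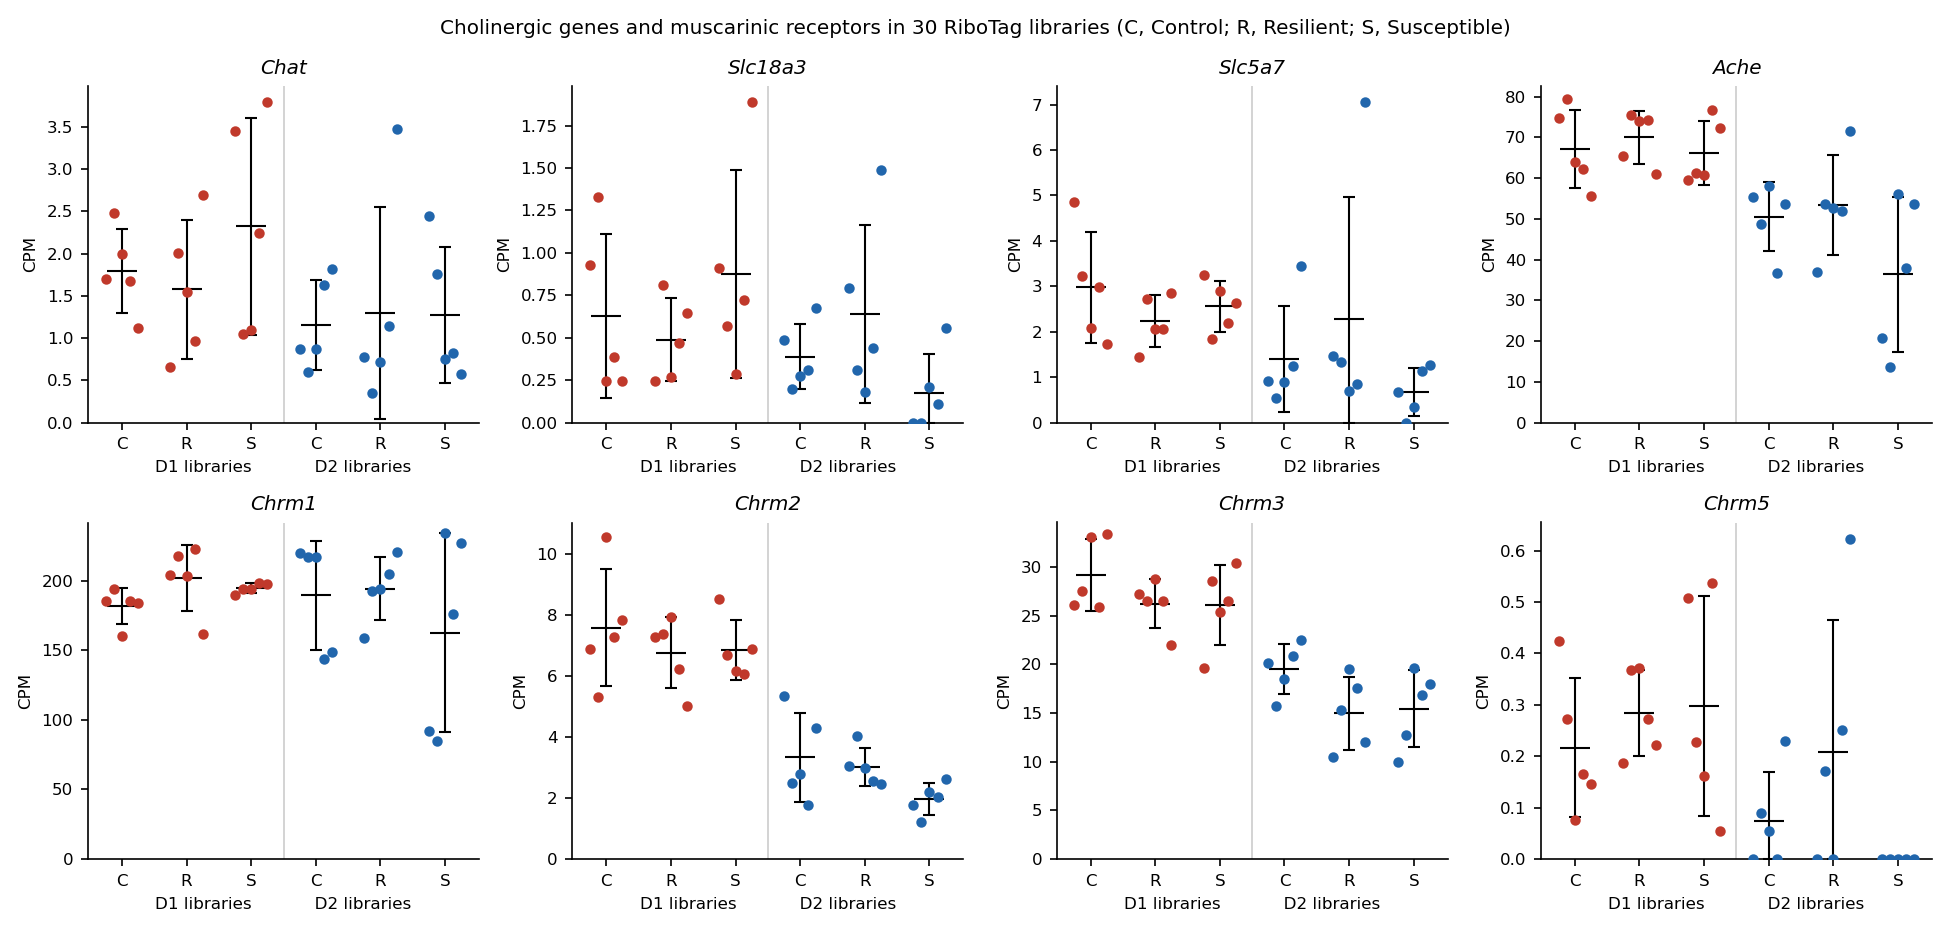
CPM (linear axis from 0) of the 8 genes in 30 libraries; points are libraries, horizontal bars group means and whiskers 1 SD over 5 libraries, with lower whiskers stopped at 0. Chrm2 and Chrm3 lie higher in D1 (red) than in D2 (blue), while D2 Resilient replicate 5 is the highest D2 library for Slc18a3, Slc5a7, Ache and Chrm5 and for Chat.

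The cholinergic trio was scarce in both classes. Chat (ENSMUSG00000021919), choline acetyltransferase, is on the minus strand of GRCm38 chromosome 14, from 32408203 to 32465989. Slc18a3 (ENSMUSG00000100241), the vesicular acetylcholine transporter, is a single exon of 2413 bp inside the Chat span, at 32462438 to 32464850 on the same strand, and it shares 0 exon bases with Chat. Slc5a7 (ENSMUSG00000023945), the high-affinity choline transporter, is on the minus strand of chromosome 17, from 54273590 to 54299034. The stretches just upstream of the annotated exons of Chat and Slc5a7 are shown because these genes varied together across libraries (below), beside that of Chrm3, which differed between the classes in every condition. They are RefSeq sequences (GRCm38.p6), read 5′ to 3′ on the gene's strand, with matches to 4 searched motifs in capitals.
Chat, chr14:32465990-32466159, minus strand: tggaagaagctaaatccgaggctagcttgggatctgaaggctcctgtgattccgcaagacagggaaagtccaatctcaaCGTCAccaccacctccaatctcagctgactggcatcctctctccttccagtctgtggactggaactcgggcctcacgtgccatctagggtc
Slc5a7, chr17:54299035-54299284, minus strand: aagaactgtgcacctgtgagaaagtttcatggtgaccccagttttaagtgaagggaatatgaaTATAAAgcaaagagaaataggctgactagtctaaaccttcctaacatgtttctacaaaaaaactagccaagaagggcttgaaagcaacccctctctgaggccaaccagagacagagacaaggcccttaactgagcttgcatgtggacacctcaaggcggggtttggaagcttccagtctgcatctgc
Chrm3, chr13:10360848-10361053, minus strand: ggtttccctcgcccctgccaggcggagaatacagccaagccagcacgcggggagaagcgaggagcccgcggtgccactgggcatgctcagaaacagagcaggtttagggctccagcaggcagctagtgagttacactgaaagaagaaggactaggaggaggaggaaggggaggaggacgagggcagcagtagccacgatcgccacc
Both strands were searched for the GC box, spelled GGGCGG, and for the core bound by homeodomain factors, spelled TAATTA. The TATA box was searched as TATAAA. The core of the cyclic AMP response element was searched as TGACG. No matches overlapped. Chat held 1 match to the last of these on the other strand, as do 9.86% of 32851 RefSeq windows cut to the same 170 bases. Slc5a7 held 1 TATA box match, as do 12.4% of windows of 250 bases. That match began 187 bases before the end of the stretch, and whether it acts in transcription was not tested. Chrm3 held none of the 4 motifs in 206 bases. The 3 stretches differed in base composition, with 54.7% G and C for Chat, 45.6% for Slc5a7 and 62.1% for Chrm3, against a median of 52.4% over all windows.

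Chat was at 1.70, 2.49, 2.00, 1.68 and 1.12 CPM in D1 Control and at 0.871, 0.597, 0.873, 1.63 and 1.82 CPM in D2 Control. In the Resilient groups it was at 0.656, 2.01, 1.55, 0.962 and 2.70 CPM in D1 and at 0.775, 0.344, 0.716, 1.15 and 3.48 CPM in D2. The Susceptible libraries held 3.45, 1.04, 1.09, 2.25 and 3.80 CPM in D1 and 2.45, 1.76, 0.754, 0.827 and 0.574 CPM in D2. D1 and D2 libraries overlapped in every condition, and the highest D2 value came from the library with the D1-like Drd1 level. Averaged over conditions the D1 minus D2 difference of Chat was 0.59 log2 units (95% interval -0.03 to 1.21), which did not pass edgeR's quasi-likelihood test (Benjamini-Hochberg adjusted p = 0.146 over all genes). A gene is called where this adjusted p is below 0.05, and an error after ± on a log2 difference is its SE. Without D2 Resilient replicate 5 alone it was 0.87 (adjusted p = 0.0182), and without D2 Susceptible replicates 1 and 2 it was 0.88 (adjusted p = 0.0202). Another test, voom with quality weights, called Chat with all libraries kept. Whether Chat was called thus depended on these libraries and on the method.

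Slc18a3 gave few reads, between 0 and 103 per library. It was at 0.929, 1.33, 0.245, 0.388 and 0.243 CPM in D1 Control, at 0.244, 0.812, 0.269, 0.472 and 0.646 CPM in D1 Resilient, and at 0.913, 0.570, 0.286, 0.722 and 1.89 CPM in D1 Susceptible. The D2 libraries held 0.488, 0.199, 0.273, 0.311 and 0.674 CPM in Control, and 0.791, 0.310, 0.179, 0.441 and 1.49 CPM in Resilient. D2 Susceptible was the lowest group, with 0 reads in replicates 1 and 2 and 0.211, 0.107 and 0.559 CPM in the others. The limit that a count of 0 allows, 3 counts, would be 0.0644 CPM in replicate 1 and 0.0543 CPM in replicate 2, so the 0 readings lie below the levels of all other libraries at this depth. The limit covers counting error only, since the reads carry no molecular identifiers. The D1 minus D2 difference passed the test in Susceptible (log2 difference 2.28 ± 0.85 SE, adjusted p = 0.0474). That call was lost in 15 of the 30 fits that left out 1 library, among them those without D2 Susceptible replicate 1 or 2, and the adjusted p ranged from 0.0064 to 0.149. Averaged over conditions the difference was 0.86 ± 0.47 (adjusted p = 0.173), which did not pass.

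Slc5a7 was the gene of the trio with a called class difference on average. It was at 4.86, 3.24, 2.09, 2.99 and 1.72 CPM in D1 Control and at 0.906, 0.543, 0.891, 1.24 and 3.44 CPM in D2 Control. In D1 Resilient it was at 1.44, 2.73, 2.07, 2.07 and 2.84 CPM, and in D2 Resilient at 1.47, 1.34, 0.696, 0.838 and 7.06 CPM. In D2 Control all libraries but replicate 5 lay below the lowest D1 library. In D2 Resilient replicate 5 lay above every D1 library, and of the others only replicate 1 reached into the D1 range. In Susceptible the groups did not overlap, with 3.25, 1.84, 2.90, 2.19 and 2.64 CPM in D1 and 0.666, 0, 0.351, 1.13 and 1.26 CPM in D2. Averaged over conditions Slc5a7 was higher in D1 by 0.98 ± 0.37 log2 units (1.97-fold, adjusted p = 0.0434), a call that was lost in 17 of the 30 fits that left out 1 library. In those fits the adjusted p reached 0.0678 and the difference ranged from 0.89 to 1.35 log2 units. Its Resilient difference was -0.03 with all libraries and 1.05 without D2 Resilient replicate 5, neither past the test.

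Ache (ENSMUSG00000023328), acetylcholinesterase, lies on the plus strand of chromosome 5 from 137287519 to 137294466, and 98 of its exon bases overlap the opposite-strand gene Gm42456, whose reads cannot be told apart if counting ignored strand. It was at 74.7, 79.4, 64.1, 62.3 and 55.5 CPM in D1 Control, against 55.4, 48.8, 58.1, 36.7 and 53.7 CPM in D2 Control. The Resilient libraries held 65.5, 75.6, 74.0, 74.3 and 61.0 CPM in D1 and 37.1, 53.8, 52.6, 51.8 and 71.7 CPM in D2. In Susceptible the values were 59.6, 61.4, 60.7, 76.7 and 72.3 CPM in D1 and 20.8, 13.7, 56.2, 38.0 and 53.7 CPM in D2, without overlap. The 2 lowest values belonged to the libraries with the fewest genes detected. Ache was higher in D1 on average by 0.55 ± 0.14 log2 units (1.47-fold, adjusted p = 0.003). The call held in all 30 fits that left out 1 library, where the difference ranged from 0.50 to 0.64 log2 units, and without the 4 libraries D2 Susceptible 1 and 2, D1 Susceptible 1 and D2 Resilient 5 it was 0.46 (adjusted p = 4.52e-05). Of the single conditions it passed in Susceptible (0.86 ± 0.24 log2 units, adjusted p = 0.0108), where leaving out both D2 Susceptible replicates 1 and 2 ended the call.

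Among the Gq-coupled receptors Chrm1 was abundant and nearly equal in the classes. Chrm1 (ENSMUSG00000032773) lies on the plus strand of chromosome 19 from 8663789 to 8683587, and 329 of its exon bases overlap Gm22820 on the other strand. Chrm1 was at 185, 194, 160, 185 and 184 CPM in D1 Control and at 220, 217, 217, 144 and 149 CPM in D2 Control. It was at 204, 218, 203, 223 and 162 CPM in D1 Resilient and at 159, 192, 194, 205 and 220 CPM in D2 Resilient. The D1 Susceptible libraries stood close together at 190, 194, 194, 198 and 198 CPM, while D2 Susceptible ran from 92.0 and 84.6 CPM in replicates 1 and 2 to 234, 176 and 227 CPM in the others. The classes overlapped in every condition. The averaged D1 minus D2 difference was 0.09 log2 units (95% interval -0.14 to 0.31, adjusted p = 0.611), and it turned to -0.02 without D2 Susceptible replicates 1 and 2.

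Chrm3 (ENSMUSG00000046159), the M3 receptor gene on the minus strand of chromosome 13 from 9875486 to 10360847, was higher in D1 in all 3 conditions. It was at 26.1, 27.5, 33.0, 25.9 and 33.4 CPM in D1 Control and at 20.2, 15.7, 18.5, 20.9 and 22.5 CPM in D2 Control. In Resilient it was at 27.2, 26.5, 28.7, 26.5 and 22.0 CPM in D1 and at 10.5, 15.3, 19.5, 17.5 and 12.02 CPM in D2. The groups did not overlap in either condition. In Susceptible the values were 19.6, 28.5, 25.3, 26.5 and 30.4 CPM in D1 and 10.0, 12.8, 19.6, 16.8 and 18.0 CPM in D2, where only the lowest D1 library met the highest D2 library. The D1 minus D2 difference was 0.58 ± 0.16 log2 units in Control (adjusted p = 0.0214), 0.81 ± 0.16 in Resilient (adjusted p = 0.00116) and 0.76 ± 0.16 in Susceptible (adjusted p = 0.00132). Averaged over conditions it was 0.72 ± 0.09 (1.64-fold, adjusted p = 5.22e-07), called in all 30 fits without 1 library. The Control call alone was lost without D1 Control replicate 3, D1 Control replicate 5 or D2 Control replicate 2, with adjusted p up to 0.0679.

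Chrm5 (ENSMUSG00000074939), the M5 receptor gene, is annotated as a single exon of 1599 bp on the minus strand of chromosome 2, at 112479171 to 112480769. It was the scarcest member, with 27, 16, 4, 9 and 6 reads in D1 Control, 10, 19, 18, 15 and 12 in D1 Resilient, and 5, 12, 9, 26 and 3 in D1 Susceptible. The D2 libraries held 0, 5, 3, 0 and 16 reads in Control, 0, 10, 0, 17 and 31 in Resilient, and 0 in all 5 Susceptible libraries. Every D1 library had at least 3 reads, and 9 of 15 D2 libraries had none. Within D2 Control and within D2 Resilient replicate 5 held the most Chrm5 reads, and these 2 libraries had the highest Drd1 of the D2 libraries. Summed over a group, D1 Susceptible stood at 0.248 CPM from 55 reads. For D2 Susceptible 3 reads over the whole group would be 0.0103 CPM, and the D1 level was 24.2-fold above that limit. The limit allows for counting error in the 0 only, not in the 55 reads or for the spread between libraries. In Control the summed D1 level was 2.79 times the D2 level (exact 95% counting interval 1.72 to 4.67), or 6.37 times (3.04 to 15.4) without D2 replicate 5. In Resilient it was 1.40 times (0.979 to 2.01), or 2.49 times (1.58 to 4.02) without D2 replicate 5. These intervals cover counting error only. The D1 minus D2 test was passed in Susceptible (adjusted p = 0.00246) and averaged over conditions (adjusted p = 0.00255), both also in all 30 fits without 1 library. In Control (adjusted p = 0.544) and in Resilient (adjusted p = 0.966) it was not passed. The average includes the Susceptible value, fitted against a group with 0 reads. A fit of the 2 Susceptible groups alone did not call Chrm5.

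Chrm2 (ENSMUSG00000045613), the Gi-coupled M2 receptor gene on the plus strand of chromosome 6 from 36388084 to 36528414, showed the smallest p of the members between the classes averaged over conditions. Of its exon bases 142 overlap the opposite-strand lincRNA 9330158H04Rik. Chrm2 was at 6.88, 5.33, 10.6, 7.30 and 7.84 CPM in D1 Control and at 5.35, 2.48, 2.78, 1.77 and 4.30 CPM in D2 Control, so that the lowest D1 and the highest D2 library were nearly level. In Resilient it was at 7.29, 7.37, 7.94, 6.24 and 5.02 CPM in D1 and at 3.07, 4.03, 2.98, 2.56 and 2.47 CPM in D2. In Susceptible it was at 8.52, 6.69, 6.17, 6.08 and 6.88 CPM in D1 and at 1.78, 1.21, 2.19, 2.04 and 2.62 CPM in D2. The last 2 conditions showed no overlap, and 13 of 15 D1 libraries lay above the highest D2 library. The difference was 1.18 ± 0.25 log2 units in Control (adjusted p = 0.00178), 1.16 ± 0.25 in Resilient (adjusted p = 0.00195) and 1.79 ± 0.25 in Susceptible (adjusted p = 9.32e-06). Averaged over conditions Chrm2 was 2.60-fold higher in D1 (log2 difference 1.38 ± 0.14, adjusted p = 6.9e-09). The call held in each condition in all 30 fits without 1 library.

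Across the conditions, 2 of 8 members (Chrm2, Chrm3) were called in Control and the same 2 in Resilient, where 8.3% and 6.65% of the 19368 genes tested were called. In Susceptible 6 of 8 were called (Slc18a3, Slc5a7, Ache, Chrm2, Chrm3, Chrm5) against 23.9% of all genes (10.5% higher in D1), and averaged over conditions 5 of 8 (Slc5a7, Ache, Chrm2, Chrm3, Chrm5) against 29.3%. Every call was higher in D1, a direction called for 13.8% of all genes in the average. The members' median log2 difference was 0.66 in Control, 0.34 in Resilient and 1.33 in Susceptible, where the median over all genes was -0.0028, -0.0035 and 0.02. Without D2 Susceptible replicates 1 and 2 the Susceptible calls fell to 3 (Chrm2, Chrm3 and Chrm5), and a fit of the 2 Susceptible groups alone called 2 (Chrm2 and Chrm3). The plot of class differences shows 7 members. Whether the class difference itself changed with stress was tested as an interaction, and no member passed (given after the stress comparisons).

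**Figure D2:**
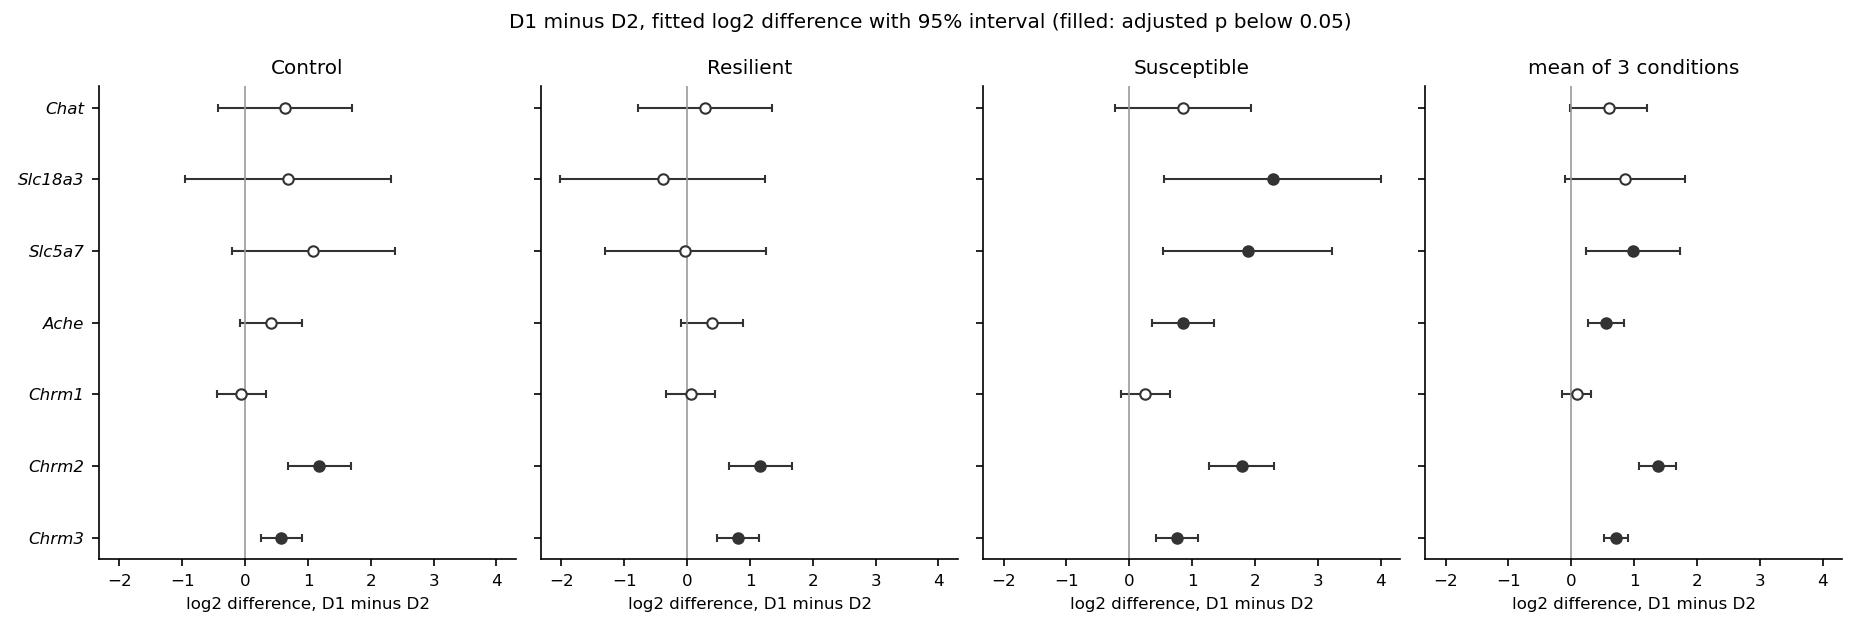
Fitted D1 minus D2 log2 difference (x axis) with its 95% interval for 7 members in each condition and averaged over the 3 conditions; filled points have an adjusted p below 0.05. Chrm2 and Chrm3 are filled in all 4 panels, Chrm1 in none; Chrm5 is not drawn because its fitted fold rests on a group with 0 reads.

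Chrm4, the M4 receptor gene and the other Gi-coupled receptor (ENSMUSG00000040495, chromosome 2, plus strand, 91927249 to 91928688), completed the family. Chrm4 was at 28.6 to 57.9 CPM in the D1 libraries and at 0 to 41.7 CPM in the D2 libraries. Averaged over conditions it was higher in D1 by 2.25 ± 0.38 log2 units (adjusted p = 5.2e-05). Of the single conditions it passed in Susceptible (3.28 ± 0.68, adjusted p = 0.00138). It did not pass in Control (1.88 ± 0.64, adjusted p = 0.0724) or in Resilient (1.58 ± 0.63, adjusted p = 0.18). As a share of the 5 receptors' summed CPM per kilobase, D1 libraries held 43.2% ± 2.76 Chrm1 and 48.4% ± 3.47 Chrm4 (SD, n = 15). D2 libraries held 73.9% ± 9.45 Chrm1 and 17.3% ± 11.0 Chrm4. Thus in D1 the 2 genes were close to equal, and in D2 Chrm1 made up most of the family's RNA. Chrm3 took 6.36% ± 1.13 in D1 and 7.46% ± 2.58 in D2, a near-equal share although its CPM was higher in D1, and Chrm2 took 1.72% ± 0.465 and 1.23% ± 0.407. In D2 Resilient replicate 5 the share of Chrm4 reached 44.1%, within the range of the D1 libraries (40.2% to 53.2%).

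**Figure D3:**
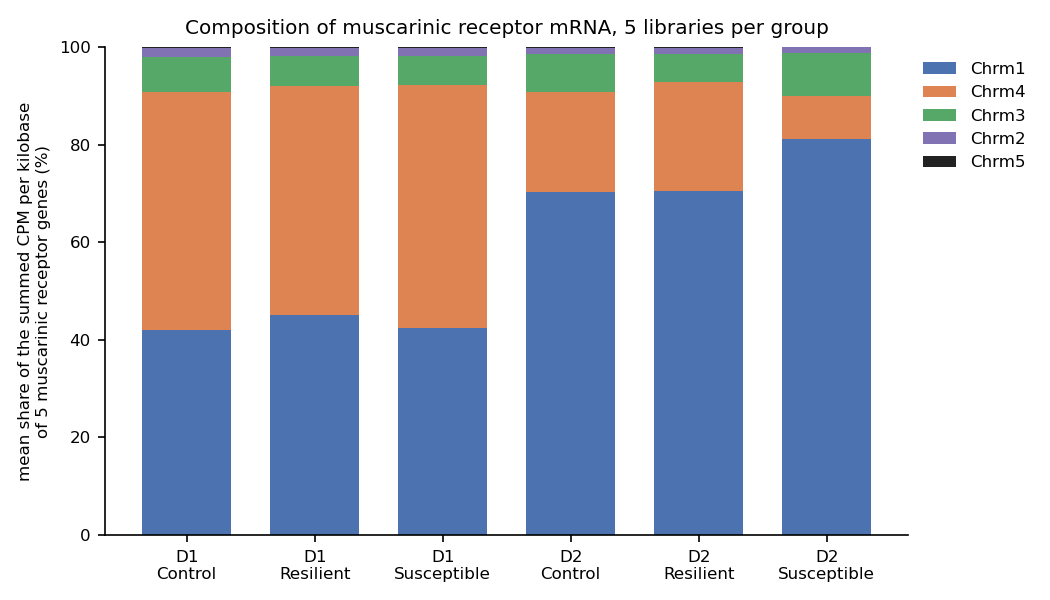
Mean share (%, y axis) of each muscarinic receptor gene in the summed CPM per kilobase of the 5 genes, for 6 groups of 5 libraries. Chrm1 and Chrm4 divide the D1 bars about evenly, Chrm1 fills most of each D2 bar (70.2% to 81.1% by group), and Chrm5 is too thin to see.

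The scatter of single libraries sets these genes beside Drd1. Slc5a7 was at 3.44 and 7.06 CPM in the 2 D2 libraries with the most Drd1, above the 1.47 CPM of the highest other D2 library. Chrm4 followed the same order, at 20.7 and 41.7 CPM in these 2 libraries against at most 16.6 CPM in the others. Ache was higher where Chrm4 was higher, with Spearman's rho of 0.90 over 30 libraries of both classes together. It was 0.88 without D2 Susceptible replicates 1 and 2, and 0.76 on values centred on group means. No rho was computed within a single class. These are descriptions of libraries that share their dissection and their scaling, and the part that RNA from the other neuron class plays in them was not tested.

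**Figure D4:**
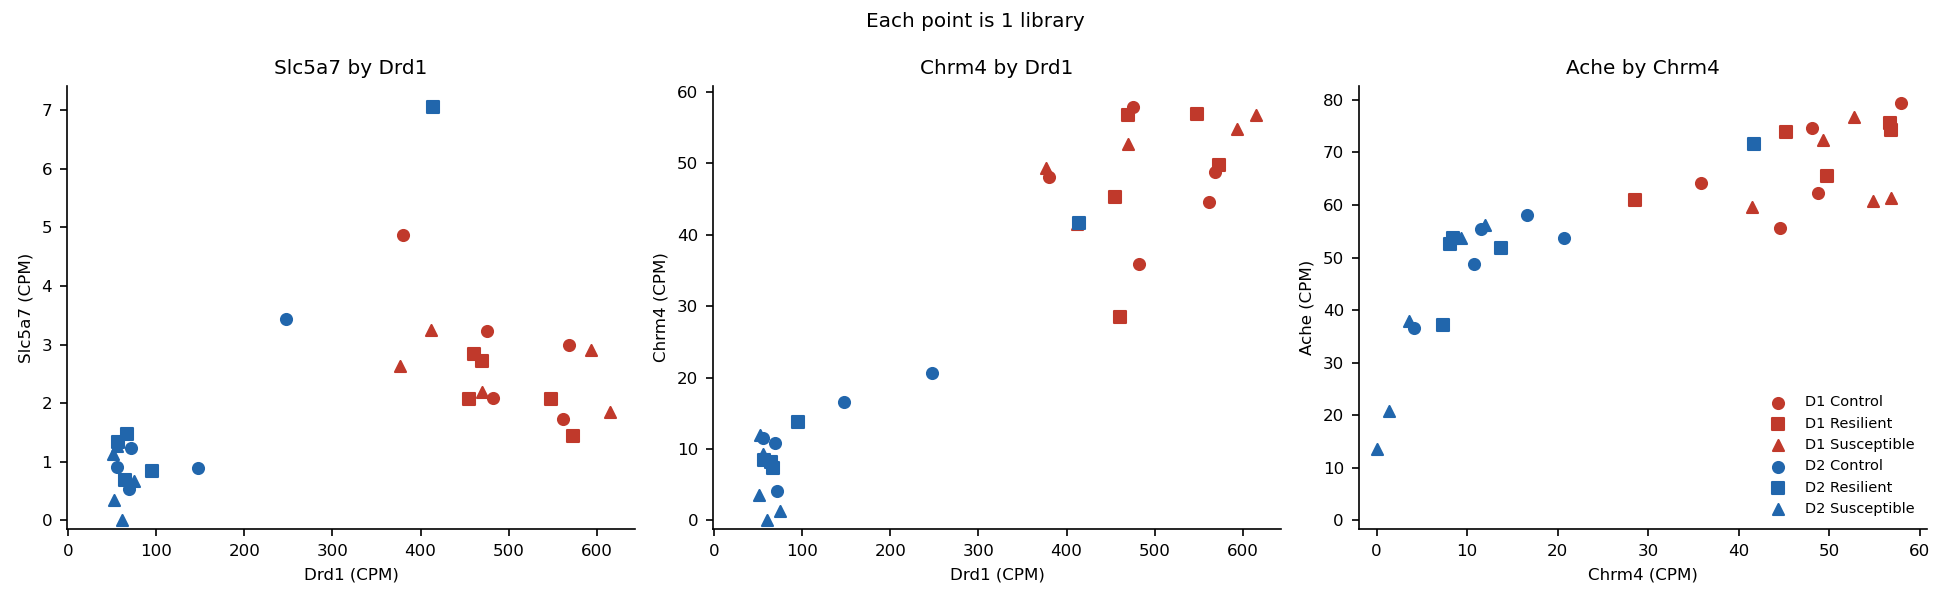
CPM of Slc5a7 and Chrm4 against Drd1, and of Ache against Chrm4; each point is 1 of 30 libraries, coloured by class and shaped by condition. The blue circle at 247 CPM and the blue square at 414 CPM of Drd1 also stand highest among D2 libraries for Slc5a7 and Chrm4.

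Markers of other cells also differed between the classes, in both directions. In the averaged class comparison 29.3% of all genes were called, 13.8% higher in D1, and the marker counts stand beside these shares. Of 10 cholinergic interneuron markers beside the members 4 were called higher in D1 and 0 lower, with a median log2 difference of 0.95 (median over all genes 0.0045). Isl1, a transcription factor of cholinergic neurons that also stands in the D1 neuron list, was at 33.0 ± 5.60 CPM in D1 and 6.35 ± 7.90 in D2, and Slc17a8, a vesicular glutamate transporter of cholinergic interneurons, at 5.98 ± 1.02 and 2.05 ± 1.56 CPM. Tacr1, the substance P receptor gene, was at 10.7 ± 1.77 in D1 and 7.42 ± 2.27 CPM in D2. The list's summed level was 51.9 to 77.2 CPM in D1 and 7.79 to 70.1 CPM in D2, with Isl1 as its most abundant gene, and D2 Resilient replicate 5 and D2 Control replicate 5 the highest D2 libraries. Lhx8, a defining factor of these neurons, was at 0 in 2 D2 libraries. Ngfr and Zic4 of the same list had higher medians in D2, at 0.956 and 1.30 CPM against 0.789 and 1.22 CPM in D1. Of 10 GABA interneuron markers 9 were higher in D1 and 1 lower, with a summed level of 483 to 679 CPM in D1 and 160 to 477 CPM in D2. Of 6 cortical projection neuron markers 5 were higher in D1 and 0 lower, with 506 to 974 CPM in D1 and 171 to 570 CPM in D2. No marker of these lists was at 0 in any library, and Slc17a7, the cortical vesicular glutamate transporter, was at 105.8 CPM or more in each. Endothelial markers went the other way, 0 of 6 higher and 6 lower in D1, at 12.7 to 36.5 CPM in D1 and 55.4 to 324 CPM in D2. So did the markers of mural cells (5 of 5 lower), oligodendrocytes (6 of 6), astrocytes (5 of 6) and microglia (4 of 6), with 0 higher in each list. In such bulk RNA fewer cells of a type and less RNA per cell cannot be told apart, and the part of these cells in the members' differences was not tested.

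Stress comparisons within a class gave no call for any member. In edgeR's quasi-likelihood test 0 of 8 members passed in each D1 comparison, where 0% of all genes were called, and none had an unadjusted p under 0.05. The D1 log2 differences ranged from -0.42 (Slc5a7, Resilient minus Control) to 0.84 (Slc18a3, Susceptible minus Resilient). DESeq2 and voom also called none of the members in D1. The intervals bound what these pools could show: for Chrm1, Susceptible minus Control in D1 was 0.10 (95% interval -0.29 to 0.49), and for Slc18a3 0.48 (-1.16 to 2.11).

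**Figure D5:**
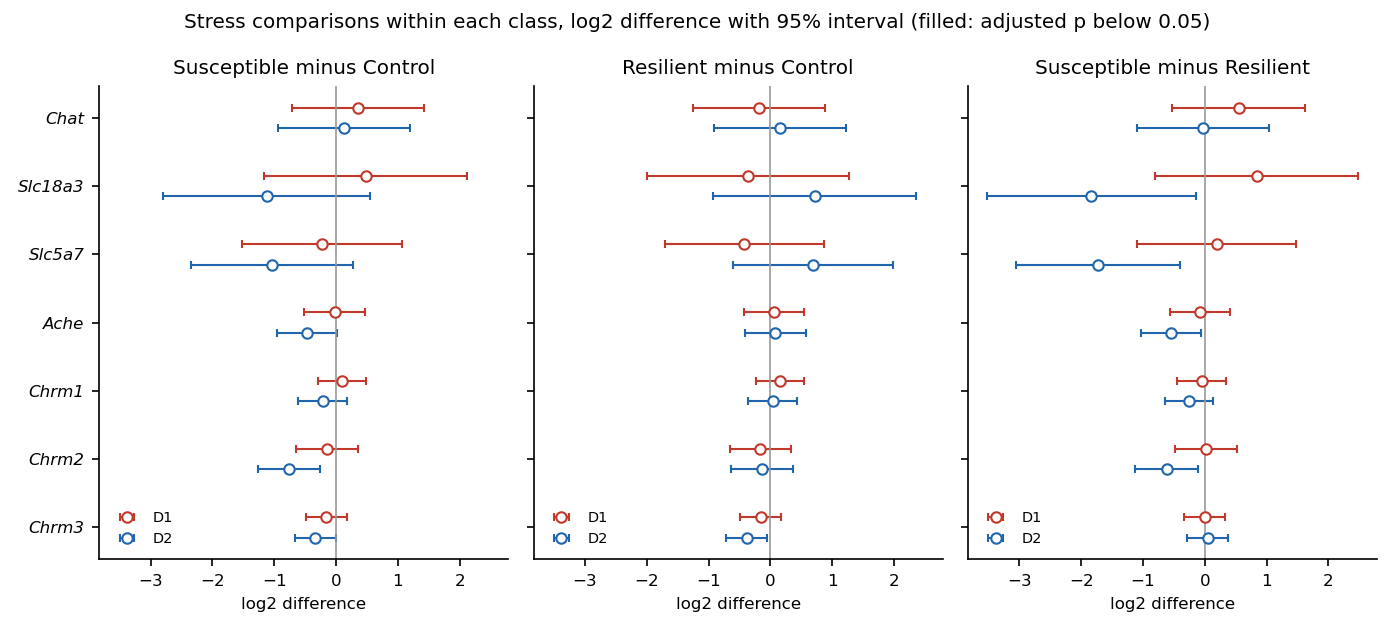
Fitted log2 differences (x axis) with 95% intervals for 3 stress comparisons in D1 (red) and D2 (blue), 7 members; open points did not pass an adjusted p of 0.05, and all points are open. Chrm5 is not drawn because D2 Susceptible holds 0 reads.

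In D2, 7 of 8 members had a value below 0 in Susceptible minus Resilient, and none passed the test. The members' median log2 difference was -0.58 and that over all genes -0.034. The share of all genes below 0 was not counted. Slc5a7 stood at -1.73 ± 0.65 log2 units (adjusted p = 0.144), Slc18a3 at -1.84 ± 0.83 (adjusted p = 0.223), Chrm2 at -0.62 ± 0.25 (adjusted p = 0.171) and Ache at -0.55 ± 0.24 (adjusted p = 0.21). With Chrm5 these were the 5 members with an unadjusted p under 0.05, a level that 19.1% of all genes reached, in a comparison that called 0.0516% of all genes. The groups overlapped for every one of them. Without the 4 libraries that stand apart in the Susceptible and D2 Resilient groups, the values were -0.25 for Slc5a7, -0.56 for Slc18a3, -0.48 for Chrm2 and -0.00085 for Ache, all 4 closer to 0 than with all libraries. Chrm5 was nearest to a call, with 58 reads in D2 Resilient against 0 in D2 Susceptible. As summed counts, Resilient was at least 19.6-fold higher, or at least 11.0-fold without replicate 5 (27 reads). These bounds allow for counting error in the 0 only, not for the spread between libraries. Of the D2 Resilient libraries 2 also held 0 reads. The adjusted p of Chrm5 was 0.0586 in edgeR and 0.00401 in DESeq2, which called this 1 member, and 0.641 in voom.

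Against Control, D2 Susceptible had 3 members with an unadjusted p under 0.05 and 0 called, where 15.7% of all genes were under that level and 0.00516% were called. Chrm2 stood at -0.76 ± 0.25 log2 units (adjusted p = 0.18), Chrm3 at -0.34 ± 0.16 (adjusted p = 0.308) and Chrm5 at 24 against 0 reads (adjusted p = 0.159). For Chrm2 the D2 Susceptible libraries held 1.21 to 2.62 CPM and the D2 Control libraries 1.77 to 5.35 CPM, with overlap. In D2 Resilient minus Control, with 0% of all genes called, Chrm3 was the 1 member with an unadjusted p under 0.05 (4.2% of all genes), at -0.38 ± 0.16 log2 units (adjusted p = 1.00). DESeq2 and voom called no member in these 2 comparisons.

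The D1 change minus the D2 change was tested for each pair of conditions. No member passed in edgeR, DESeq2 or voom, and 0% of all genes were called in edgeR. For Susceptible against Resilient 3 members had an unadjusted p under 0.05, as did 12.4% of all genes, with Slc18a3 at 2.67 ± 1.16 log2 units (adjusted p = 0.34) and Slc5a7 at 1.92 ± 0.90 (adjusted p = 0.382), Chrm5 being the other. For Susceptible against Control it was 1 member, Chrm5 (adjusted p = 0.637), where 7.79% of all genes were under that level, and for Resilient against Control none. The class difference of the members is thus not shown to differ between conditions, although 6 were called in Susceptible and 2 in Control.

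Other genes of the pathway were read from 7 lists of 62 genes, 59 of them tested. In the averaged class comparison 22 were higher in D1 and 8 lower, with a median log2 difference of 0.20. The counts of these genes and of the single lists stand beside the 29.3% of all genes that were called in that comparison, 13.8% higher in D1. For these genes, in the stress and interaction comparisons 0 passed in edgeR. At an unadjusted p under 0.05 there were 1, 1 and 2 in the D1 comparisons, 11, 1 and 11 in the D2 comparisons and 2, 2 and 5 in the interactions, in the order Susceptible against Control, Resilient against Control, Susceptible against Resilient. In the same order the shares of all genes at that level were 2.4%, 2.6% and 3.49% in D1, 15.7%, 4.2% and 19.1% in D2, and 7.79%, 4.99% and 12.4% in the interactions. DESeq2 called 6 of the pathway genes in D2 Susceptible minus Resilient.

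Nicotinic receptor subunits, the ion channel side of acetylcholine signalling, had 5 of 12 tested genes higher in D1 and 1 lower. Chrna5, an accessory subunit, was at 1.26 ± 0.420 CPM in D1 and 0.401 ± 0.357 in D2 (log2 difference 1.90 ± 0.39, adjusted p = 0.000419). Chrnb3, another accessory subunit, differed by 1.77 ± 0.45 (adjusted p = 0.0032), and Chrnb2, the subunit common to most brain receptors, by 0.30 ± 0.07 (adjusted p = 0.00239) at 68.1 and 55.5 CPM. Chrnb1, the muscle-type subunit, was lower in D1 by 2.69 ± 0.75 log2 units, at 0.0549 and 0.356 CPM, a level of a few reads. Genes that bring nicotinic receptors to the membrane or modulate them had 4 of 7 higher in D1 and 0 lower: Lypd6 differed by 1.40 ± 0.15 log2 units (adjusted p = 9.95e-09), its relative Lypd6b by 0.75 ± 0.11 and the chaperone Ric3 by 0.37 ± 0.05. Of the cholinesterase partners 1 of 3 was lower in D1, Bche (butyrylcholinesterase) at 0.398 ± 0.269 CPM against 1.39 ± 1.51 CPM in D2 (log2 difference -1.74 ± 0.50, adjusted p = 0.00842).

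Choline uptake and phosphorylation genes were split, 3 of 8 higher in D1 and 2 lower. Pcyt1b, an enzyme of phosphatidylcholine synthesis, was higher in D1 by 0.40 ± 0.07 log2 units, and its paralog Pcyt1a by 0.20 ± 0.06. Slc44a1 and Slc44a2, choline transporter-like genes, stood at -0.28 ± 0.06 and -0.19 ± 0.07, lower in D1, while Slc44a5 was at 0.30 ± 0.10. All 5 passed, with adjusted p between 4.74e-05 (Pcyt1b) and 0.0292 (Slc44a2). The Gq list had 3 of 12 higher and 2 lower. Prkca, a protein kinase C gene, was higher in D1 by 0.58 ± 0.06 log2 units (adjusted p = 3.49e-09), and Plcb4, a phospholipase C, by 0.84 ± 0.12. Plcb3 was lower at -1.36 ± 0.21 and Prkcb at -0.41 ± 0.10. The Gi list had 3 of 7 higher, Chrm4 and the G protein subunits Gnai1 (0.74 ± 0.07, adjusted p = 2.85e-10) and Gng3 (0.24 ± 0.05), and 2 lower, Gnai2 (-0.23 ± 0.05) and Gnao1 (-0.19 ± 0.05).

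Across libraries the cholinergic genes varied together to differing degrees. Spearman's rho on log2 CPM over 30 libraries was 0.75 for Slc18a3 with Slc5a7, 0.60 for Chat with Slc5a7 and 0.50 for Chat with Slc18a3, although the latter 2 genes lie on the same strand with 1 inside the other's span. Without D2 Susceptible replicates 1 and 2 the 3 values were 0.70, 0.77 and 0.67, with Chat and Slc5a7 then the highest. On values centred on group means they were 0.63, 0.40 and 0.26. Chrm2 and Chrm3 had a rho of 0.78, and 0.42 after centring. Ache and Chrm1 showed the reverse order, 0.41 as measured and 0.80 after centring. Without D2 Susceptible replicates 1 and 2 their uncentred value was 0.27. The centred value includes these libraries, which held the lowest levels of both genes. All 30 points share the scaling and the class contrast, so the centred values describe what is left within groups.

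Among 12404 genes with a mean of at least 1 CPM, the genes most like each member in this measure were ranked. For Chat they were Tox2 (rho 0.75), Crh (0.71) and Slc10a4 (0.70). Slc5a7 was close to Gprin2 (0.83) and Pcdh8 (0.82), and Ache was closest to Galnt18 (0.95), Dctn2 (0.94) and Dgkz (0.94). Chrm1 was closest to Ptpn11 (0.90), Add1 (0.90) and Fscn1 (0.89), Chrm2 to Cadps (0.94), Syt1 (0.92) and Disp2 (0.92), and Chrm3 to Cntn2 (0.92), Lgi2 (0.90) and Nt5dc3 (0.90). Slc18a3 and Chrm5 averaged under 1 CPM and were not ranked. The nearest genes changed with the libraries and the centring. Without D2 Susceptible replicates 1 and 2, all 3 nearest genes remained for Ache and for Chrm1, 2 for Slc5a7 and for Chrm2, and 1 for Chat and for Chrm3. On values centred on group means 0 of 3 remained for Slc5a7 and for Ache, and 1 for each of the other 4 members.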

How the data were processed

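The deposited files hold whole-number counts of reads per gene, which the authors made with HISAT2 and HTSeq on GRCm38 (mm10), per the submitters' processing notes (no version, annotation release or strand handling is stated). Libraries were made from 10 ng of RNA with a SMART-Seq kit, per the labels' protocols. The 5 HTSeq summary lines (10.1% to 53.3% of reads) stayed out of library sizes and tests. The 30 table columns were identical to the 30 library files, and 0 columns had no sample. Genes were named from GENCODE M21 (55154 of 55335 matched); that may differ from the annotation counted on, so lengths per kilobase are approximate. Counts passing filterByExpr (19368 genes) were fitted in 1 model of 6 groups with TMM scaling and edgeR's robust quasi-likelihood test (edgeR 4.0.16, R 4.3.3), with Benjamini-Hochberg adjustment over all genes and a threshold of 0.05. DESeq2 1.42.0 (Wald test and size factors), limma 3.58.1 (voom with quality weights), no filter, the compared groups alone, a replicate block, leaving out each library and leaving out libraries that stand apart were alternatives; the set with D2 Resilient replicate 5, and the Chrm5 ratio without D2 Control replicate 5, were added after seeing the data. Levels are CPM on TMM-scaled sizes, divided by exon length for comparisons between genes. The fit was tested on simulated data. Named genes were, of each list, up to 3 called in each direction with the smallest p, and the 3 genes of highest rho for each ranked member; a gene of either rule may be not reported here. The members and lists were chosen with earlier results of these data known. Of 9 receptor and cholinergic genes looked for, 8 had a RefSeq promoter window. Male mouse and human data named in the study's design were not analysed here.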

Additional observations from a re-analysis of the deposited data

Results flagged for a closer look

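In 3 of 47 member-by-group sets of 5 libraries, 1 library stood far from the other 4 by Dixon's test, which flags about 1 in 20 such sets by chance. Chat was at 3.48 CPM in D2 Resilient replicate 5, against 0.344 to 1.15 CPM in the other 4. Slc5a7 was at 7.06 CPM in the same library, against 0.696 to 1.47 CPM. Slc5a7 was also at 3.44 CPM in D2 Control replicate 5, against 0.543 to 1.24 CPM in the others. These are the 2 D2 libraries with the highest Drd1.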

How the results depend on the processing

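Chrm2, Chrm3, Ache and Chrm5 were higher in D1 averaged over conditions, and past the threshold, under every alternative run. For this average the fit of only the groups compared is the main fit itself, so it is no separate check. Members called in Control numbered 1 to 2 with 1 library left out and 2 to 3 otherwise, in Resilient 2 and 2 to 3, averaged 4 to 6 and 4 to 6. In Susceptible they numbered 4 to 6 with 1 library left out and 2 with only the groups compared. They numbered 3 without D2 Susceptible replicates 1 and 2, with or without D1 Susceptible replicate 1. With D2 Resilient replicate 5 left out as well they were Chat, Chrm2, Chrm3 and Chrm5, although Chat was not called in the main fit. By voom they were Slc5a7, Chrm2, Chrm3 and Chrm5, and with no filter the call of Slc18a3 was lost. In D2 Susceptible minus Resilient the count was 0 to 2 with 1 library left out and 1 by DESeq2. Pathway genes called in Control were 21 by voom, 19 without D2 Susceptible replicates 1 and 2 and in both larger exclusions, and 6 to 15 with 1 library left out, against 10. In Resilient they were 22 by voom, 16 with only the groups compared, 19, 18 and 19 in the 3 exclusions, and 7 to 13 with 1 library left out, against 8. In Susceptible they were 6 with only the groups compared and 14, 14 and 15 in the 3 exclusions, against 25. In D2 Susceptible minus Resilient they were 6 by DESeq2 and 0 to 7 with 1 library left out, against 0.

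No called value changed sign. The uncalled D1 minus D2 value of Slc5a7 in Resilient (-0.03) was 0.68 by voom, 1.04 without the 4 libraries, and -0.24 to 1.05 with 1 library left out. That of Chrm1 averaged over conditions (0.0856) was -0.0745 by voom and -0.0236, -0.0385 and -0.0235 in the 3 exclusions. Ache averaged over conditions was 0.35 by voom. The causes were not tested. All-gene counts varied too: 981 to 5491 in Control, 960 to 3416 in Resilient, 915 to 6218 in Susceptible, 0 to 828 in D2 Susceptible minus Control and 0 to 1964 in D2 Susceptible minus Resilient.

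Same-numbered libraries of different groups had correlations of -0.168 to 0.0779 on values centred on group means. What the replicate numbers mark is not stated, and these correlations do not settle whether they mark a shared day or batch. With the number as a replicate block the members called were 2, 2, 6 and 5, as without it, and Slc5a7 in Resilient was 0.40. Slc18a3 and Chrm5, at under 1 CPM, are limited by depth.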
